A study of Mus musculus with 30 samples.

Results

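The transcripts described here are those of 9 genes of the rod light response in samples of mouse retinal pigment epithelium (RPE), the pigmented cell layer that lies against the outer segments of the photoreceptors. The genes were chosen by name for their role in rods, and all 9 were found among the 51904 genes of the deposited table. They are Gnat1, Gnb1 and Gngt1 (the alpha, beta and gamma subunits of rod transducin), Pde6a and Pde6b (the catalytic subunits of rod phosphodiesterase), Cnga1 (a subunit of the rod cyclic nucleotide-gated channel), Sag (rod arrestin), Rcvrn (recoverin) and Pdc (phosducin). RNA from 30 male wild-type C57BL/6 mice, 10 to 13 weeks old, was sequenced from 1 eye per mouse, and 5 mice were collected per time point. The 6 time points, in hours of zeitgeber time (ZT), were ZT0, ZT2, ZT4, ZT9, ZT14 and ZT19, with ZT0 as lights-on by convention. Per the labels, the retina was peeled away before storage of the eyecup, and the RPE was lifted from the choroid with forceps before lysis. No transgene or treatment is given for any group, and the labels separate the samples by time of day, by eye and by animal number.

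In rods, absorbed light leads to the activation of transducin, and transducin in turn releases the inhibition of phosphodiesterase. Phosphodiesterase breaks down cyclic GMP, and the cyclic nucleotide-gated channels of the outer segment then close. Arrestin ends the light signal upstream of transducin, recoverin is a calcium sensor that acts on the shut-off of the response, and phosducin binds the beta and gamma subunits of transducin. The RPE takes up the shed tips of rod outer segments every day, with a peak near light onset in mice. The genes were picked as genes of photoreceptors, and which cells made their RNA in these samples was not measured. Gnb1 is the least specific by function, since its beta subunit also serves other G proteins in many cell types.

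Positions are given for 8 of the genes. In the mouse assembly GRCm38 (mm10), Gnat1 spans bases 107674474 to 107679712 of chromosome 9, minus strand. Gnb1 spans 155491361 to 155559269 of chromosome 4 and Gngt1 spans 3993792 to 3997436 of chromosome 6, both on the plus strand. Pde6b (108388391 to 108432397, plus strand) and Cnga1 (72603696 to 72644275, minus strand) share chromosome 5. Sag (87803680 to 87845158) and Pdc (150319417 to 150333906) share chromosome 1, and Rcvrn spans 67695326 to 67703333 of chromosome 11, all on the plus strand. Each value reported below covers a whole gene, so it does not separate exons or transcripts.

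The 250 bases upstream of the transcription start are shown for Gnb1 and for 3 other genes of the set, Sag, Pde6b and Pdc. Any link between these sequences and the levels below was not tested. RefSeq promoters of GRCm38.p6 were found for 6 of the 9 genes. Capitals mark matches on either strand to TAATC (the core bound by the photoreceptor factor CRX and by OTX2), TGCTGA (part of the site of the rod factor NRL) or GGGCGG (a GC box). All 4 sequences are on the plus strand, written 5′ to 3′. They are chr1:87803430-87803679 for Sag, chr5:108388123-108388372 for Pde6b, chr1:150319167-150319416 for Pdc and chr4:155491111-155491360 for Gnb1.
Sag: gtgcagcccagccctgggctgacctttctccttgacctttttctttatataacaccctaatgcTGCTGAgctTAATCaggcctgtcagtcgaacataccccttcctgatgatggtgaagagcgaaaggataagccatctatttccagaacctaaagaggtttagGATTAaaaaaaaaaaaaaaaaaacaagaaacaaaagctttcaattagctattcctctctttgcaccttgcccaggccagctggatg
Pde6b: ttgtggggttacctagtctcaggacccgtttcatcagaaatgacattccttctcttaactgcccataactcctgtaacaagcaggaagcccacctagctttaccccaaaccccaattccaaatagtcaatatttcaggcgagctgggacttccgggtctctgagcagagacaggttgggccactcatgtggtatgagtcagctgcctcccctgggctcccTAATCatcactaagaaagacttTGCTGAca
Pdc: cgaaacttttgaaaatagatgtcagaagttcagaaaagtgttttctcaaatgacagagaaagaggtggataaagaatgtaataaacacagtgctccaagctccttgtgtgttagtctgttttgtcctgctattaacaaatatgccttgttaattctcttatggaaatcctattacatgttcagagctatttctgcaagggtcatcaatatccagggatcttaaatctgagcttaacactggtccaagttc
Gnb1: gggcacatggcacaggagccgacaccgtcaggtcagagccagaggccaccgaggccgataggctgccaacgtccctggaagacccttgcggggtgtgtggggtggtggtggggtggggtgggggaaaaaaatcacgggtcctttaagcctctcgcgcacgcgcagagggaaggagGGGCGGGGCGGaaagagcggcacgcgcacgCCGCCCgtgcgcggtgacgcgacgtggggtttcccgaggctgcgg
The letters TAATC occurred upstream of Sag, Pde6b, Cnga1 and Gngt1, and in 19.8% of all 32851 RefSeq promoters read over the same length. The longer form TAATCC, which contains TAATC, occurred in Sag, Cnga1 and Gngt1 and in 6.25% of all promoters. TGCTGA was present in Sag and Pde6b and in 16.1% of all promoters. The E-box CACGTG, the element bound by CLOCK and BMAL1, was in none of the 6 windows and in 6.02% of all promoters. GGGCGG was found in Gnb1 alone among the 6, and in 32.7% of all promoters. The Gnb1 window was 69.2% G and C, against 42.8% for Sag, 49.6% for Pde6b, 36.4% for Pdc and a median of 52.4% over all promoters. These are matches of letters, and no binding was measured.

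Expression is given as FPKM, which is scaled by transcript length and by depth, so that levels of different genes can be set side by side. The steps between low FPKM values put the depth of single samples at 12.45 to 22.98 M reads, where M stands for mega. ZT14 replicate 3 had 12754 genes with a value above 0, and the 29 other samples had 16723 to 19374. In that sample 557 genes with a median of at least 10 FPKM elsewhere were listed at 0, against 1 to 23 in the other samples. The labelled tissue was checked on 16 RPE markers, whose summed level ran from 7097 to 21396 FPKM. Rpe65, the isomerase of the visual cycle, lay between 336 and 1648 FPKM, whereas the chloride channel gene Best1 had a median of 0.607 FPKM and was listed at 0 in 8 samples. Markers of other tissues were also present, taken as sums over lists of genes. The summed level ran from 2152 to 18982 FPKM for 10 surface epithelium genes, from 2394 to 28653 FPKM for 10 skeletal muscle genes and from 358 to 11729 FPKM for 8 myelin genes. Single myelin genes were not all present in every sample. Their lowest values were 194 FPKM for Mal and 38.3 for Mbp, but 0.297 for Mag, 0.166 for Mobp and 0 for Mog. Correlations of Gnat1 with markers of these tissues, and fits with tissue scores as terms, are given below. Whether these tissues added RNA of the rod genes was not tested.

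Transcripts of the rod genes were present in nearly every sample, at levels that differed between mice by more than 2 orders of magnitude for most of them. Gnat1, the alpha subunit that carries the signal, had a median of 83.3 FPKM over the 30 samples, with a lowest value of 7.76 and a highest of 2139 FPKM. At ZT0 the 5 mice had Gnat1 levels of 7.76, 21.7, 43.2, 775 and 2139 FPKM. Both the lowest and the highest sample of the study were therefore collected at the same time of day. The values at ZT2 were 1018, 803, 86.6, 1024 and 28.4 FPKM. At ZT4 they were 627, 247, 52.2, 17.1 and 87.8 FPKM, and at ZT9 they were 74.1, 1375, 11.6, 15.7 and 387 FPKM. In each of these time points, samples under 100 FPKM stood beside samples above 200 FPKM. The values at ZT14 were 680, 29.4, 188, 37.7 and 70.7 FPKM, and at ZT19 they were 1361, 65.1, 79.9, 578 and 26.4 FPKM. No 2 time points had Gnat1 ranges that did not overlap, and this held in all 15 pairs of time points for each of the 9 genes. The same count was not made over all genes, so it shows no trait particular to these 9. The mean at ZT0 was 597 ± 921 FPKM (SD, n = 5), and at ZT14 it was 201 ± 275 FPKM.

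**Figure D1:**
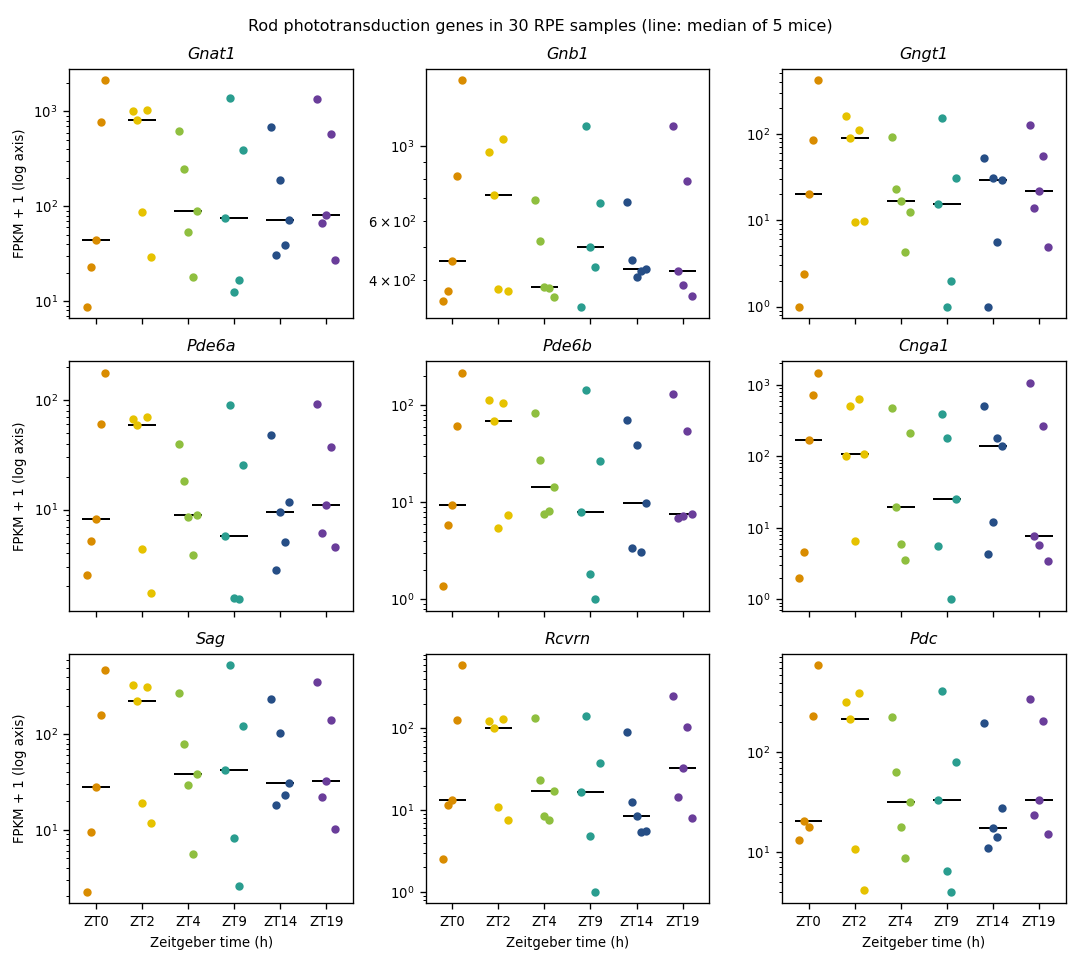
FPKM plus 1 (log axis) of each gene against zeitgeber time, with 1 point per mouse and a line at the median of the 5 mice. Points of different times overlap in every panel; Gnat1 at ZT0 spans the whole range of that gene (7.76 to 2139 FPKM), Gnb1 at ZT14 only 407 to 681 FPKM, and the axis for Gnb1 covers only 332 to 1574 FPKM.

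The other transducin subunits differed from each other. Gnb1 was the most abundant of the 9 genes in 25 samples and Gnat1 in the other 5. At ZT0 Gnb1 was at 345, 370, 454, 817 and 1574 FPKM, and at ZT2 it was at 963, 714, 374, 1052 and 369 FPKM. The mice with the highest Gnat1 also had the highest Gnb1 at both times, but the lowest Gnb1 value at these times was 345 FPKM. The Gnb1 levels at ZT4 were 692, 520, 380, 379 and 355 FPKM, and at ZT9 they were 332, 1148, 501, 436 and 678 FPKM. At ZT14 the 5 mice had 681, 458, 407, 424 and 429 FPKM, and at ZT19 they had 1150, 423, 385, 790 and 358 FPKM. Gnb1 thus covered a range of 4.74-fold, against 276-fold for Gnat1. Gngt1, which encodes the gamma subunit that pairs with the beta subunit, ran from 0 to 417 FPKM around a median of 19.8 FPKM. It was listed at 0 in 3 samples, which were ZT0 replicate 1, ZT9 replicate 3 and ZT14 replicate 2. At ZT0 the Gngt1 levels were 0, 1.38, 19.0, 84.4 and 417 FPKM, in the order of the Gnat1 values above. At ZT2 they were 159, 87.4, 8.51, 110 and 8.86 FPKM, and at ZT14 they were 51.4, 0, 29.9, 4.60 and 27.8 FPKM. The 3 mice with the highest Gnat1 at ZT2 were also the 3 with the highest Gngt1.

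The phosphodiesterase subunits were the least abundant of the set and tracked each other. Pde6a ran from 0.523 to 176 FPKM with a median of 8.17, and Pde6b from 0 to 217 FPKM with a median of 8.67. Pde6a ranked eighth or ninth among the 9 genes in 24 samples, and Pde6b in 15. At ZT19 the Pde6b levels were 131, 5.86, 6.26, 53.2 and 6.64 FPKM, and the Pde6a levels of the same mice were 91.0, 5.15, 9.94, 36.0 and 3.54 FPKM. The same 2 mice were high for both subunits. At ZT2 the Pde6b levels were 114, 68.2, 4.41, 105 and 6.39 FPKM and the Pde6a levels were 66.5, 57.7, 3.36, 69.3 and 0.752 FPKM. Here 3 mice were high for both, the same 3 as for transducin.

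Among the regulators, Sag ran from 1.23 to 525 FPKM (median 34.1) and Pdc from 2.97 to 744 FPKM (median 28.8). At ZT2 the Sag levels were 331, 221, 17.9, 314 and 10.9 FPKM and the Pdc levels were 315, 215, 9.79, 391 and 3.17 FPKM. At ZT14 the Sag levels were 232, 17.1, 102, 22.2 and 30.2 FPKM and the Pdc levels were 196, 9.98, 16.6, 13.0 and 26.9 FPKM. At each of these times the highest mouse stood well above the lowest, by more than 10 times for both genes. Sag was the only gene of the 9 whose highest sample was not ZT0 replicate 5. Its highest value was in ZT9 replicate 2, where Gnat1 stood second of 30. Rcvrn, the calcium sensor, had levels of 1.52, 10.6, 12.1, 124 and 590 FPKM at ZT0 and of 121, 99.8, 9.92, 130.006 and 6.65 FPKM at ZT2. At ZT4 it was at 132, 22.3, 7.56, 6.68 and 16.1 FPKM, and at ZT9 at 15.7, 141, 3.81, 0 and 37.1 FPKM. The values at ZT14 were 88.3, 11.8, 7.54, 4.47 and 4.59 FPKM, and those at ZT19 were 249, 13.5, 32.0, 103 and 6.96 FPKM. At each of the 6 times the mouse with the most Gnat1 also had the most Rcvrn. The order was not the same throughout. ZT14 replicate 3, the sample with the fewest genes above 0, had 188 FPKM of Gnat1 and 7.54 FPKM of Rcvrn. ZT14 replicate 2 had 29.4 FPKM of Gnat1 and 11.8 FPKM of Rcvrn. Rcvrn has 1 annotated transcript, of 1040 bases, so its reads could be estimated from the FPKM steps: they ran from 0 to 8155 per sample, with a median of 212.5.

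The spread among mice of the same time point set 8 of the genes apart from most of the transcriptome. The SD of log2(FPKM + 1) within time points was 2.12 for Pde6a, 2.27 for Rcvrn, 2.30 for Pde6b, 2.37 for Pdc, 2.43 for Sag, 2.48 for Gngt1, 2.54 for Gnat1 and 3.41 for Cnga1. Each of these exceeded the SD of at least 99.4% of the 16741 genes tested, over which the median was 0.63 and the 95th percentile 1.30. Gnb1, with an SD of 0.66, stood above 54.8% of the tested genes. Differences between time points made up 4.21% (Sag) to 10.7% (Rcvrn) of the variance of log2(FPKM + 1). This share is not corrected for the number of time points, so it is above 0 even where time has no effect. Of 26 other genes expressed in rods, 17 had an SD above the 95th percentile, and the median SD of the 26 was 1.87. Spread of this size was not particular to rod genes. The SD was 2.71 for the lens gene Cryaa, 2.43 for the inner retina gene Pcp2, 2.34 for the cone gene Opn1sw and 2.33 for the myelin gene Mobp. Other markers of the same tissues had less, with 0.79 for Bfsp1, 0.46 for Prkca, 0.63 for Thrb and 0.62 for Mal. In 9 samples every one of the 9 genes was above its median over the 30 samples, and in 7 samples none was. With bulk RNA, fewer rod cells or cell fragments in a sample and less RNA per cell cannot be told apart.

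**Figure D2:**
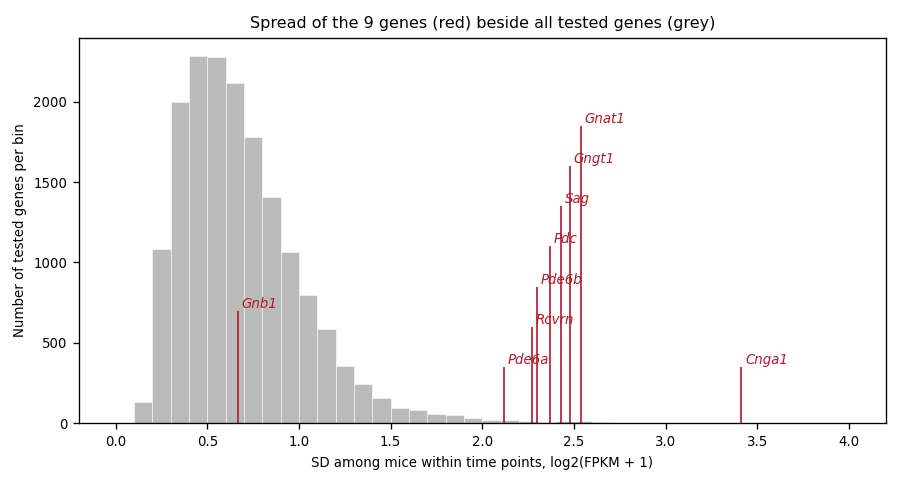
SD of log2(FPKM + 1) among mice within time points, with all 16741 tested genes as grey bars (number of genes per bin) and the 9 rod phototransduction genes as red lines (line height has no meaning). Gnb1 lies near the median of 0.63 and the other 8 lie at 2.12 or above, past the 95th percentile of 1.30.

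The first question of the design, whether levels follow the time of day, was addressed with a 24 h cosine fitted to all 30 samples. None of the 9 genes passed (limma moderated F test, adjusted over all 16741 genes, threshold 0.05), beside 0.108% of all genes tested. None had an unadjusted p below 0.05 either, beside 8.76% of all genes. The largest fitted amplitude, the distance from mean to peak, was that of Rcvrn at 0.96 ± 0.56 (SE, log2 scale; limma adjusted p = 0.727). Gnat1 had an amplitude of 0.44 ± 0.61 (limma adjusted p = 0.943) and Gnb1 one of 0.12 ± 0.16 (limma adjusted p = 0.943). Amplitudes were 0.72 for Gngt1, 0.70 for Pdc, 0.64 for both Pde6a and Pde6b, 0.57 for Cnga1 and 0.18 for Sag (limma adjusted p from 0.850 to 0.988). Leaving out 1 sample at a time moved these amplitudes widely, by more than 1.5 times for several genes. The range was 0.040 to 0.53 for Sag, 0.21 to 0.79 for Gnat1, 0.26 to 0.90 for Cnga1, 0.0262 to 0.23 for Gnb1 and 0.63 to 1.30 for Rcvrn. For Gngt1, Pdc, Pde6a and Pde6b the ranges began between 0.39 and 0.45 and ended between 0.97 and 1.07. Fitted peaks ran from ZT 22.2 to 23.3, but every amplitude was smaller than 2 SEs, and the 9 genes were measured in the same samples. With 1 mean per time point and no assumed shape, no gene of the set differed among the 6 times, adjusted or unadjusted (limma adjusted p from 0.917 to 0.987), beside 0.0717% of all genes after adjustment and 8.67% before.

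Levels by day (ZT2, ZT4 and ZT9) and by night (ZT14 and ZT19) differed by far less than the spread among mice. None of the 9 genes was called at the adjusted or unadjusted threshold in limma (adjusted p from 0.941 to 0.998). Over all genes, limma called 0.0299% after adjustment, and 10.5% (1765 genes) had an unadjusted p below 0.05. Day minus night was 0.16 ± 0.96 (SE, log2 scale) for Gnat1, with a 95% interval from -1.80 to 2.13. The interval for Gnb1, the gene with the smallest spread, ran from -0.44 to 0.61 around 0.09. For Cnga1, with the largest spread, it ran from -2.58 to 2.70. Changes of several-fold in either direction therefore fall inside the intervals of all genes but Gnb1, and would not have been detectable in this design. Among the regulators the interval was -1.87 to 1.89 for Sag, -1.74 to 1.79 for Rcvrn and -1.78 to 1.89 for Pdc. The estimate was above 0 for 8 genes and below 0 for Pde6a, at -0.04. Over the alternatives tried, 99 of 360 estimates had the opposite sign.

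Steps between neighbouring times, which include those around light onset when the RPE takes up outer segments, gave no call among the 9 genes, adjusted or unadjusted. Over all genes, an unadjusted p below 0.05 was found for 3% to 13% in single steps. After adjustment, limma called 0% in the 4 steps from ZT0 to ZT14, 0.0119% from ZT14 to ZT19 and 0.0418% from ZT19 to ZT0. From ZT0 to ZT2 all 9 estimates were above 0 (median 0.75 on the log2 scale), and from ZT2 to ZT4 all 9 were below 0 (median -1.05). Both steps rest on the same 5 mice at ZT2, of which 3 had Gnat1 levels above 800 FPKM. The limma adjusted p was 1 for every gene in both steps. For Gnat1 the step from ZT0 to ZT2 was 1.44 ± 1.48 (SE), with a 95% interval from -1.60 to 4.48.

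The labels also give the eye, with 16 left and 14 right eyes spread unevenly over the times: all 5 eyes at ZT4 were left, and 4 of 5 at ZT2 and at ZT19 were right. Gnat1 had a lowest, median and highest level of 7.76, 58.7 and 2139 FPKM in left eyes, and of 21.7, 288 and 1375 FPKM in right eyes. For Pde6b the corresponding values were 0, 7.78 and 217 FPKM in left eyes and 4.41, 31.9 and 142 FPKM in right eyes. The ranges overlapped almost fully. With time as a term, no gene of the set was called between eyes, adjusted or unadjusted, beside 0% of all genes called by limma after adjustment and 11.1% with an unadjusted p below 0.05. Right minus left was above 0 for 8 genes, the largest being Pde6b at 1.67 ± 0.94 (SE, log2 scale; 95% interval -0.26 to 3.59; limma adjusted p = 0.52).

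**Figure D3:**
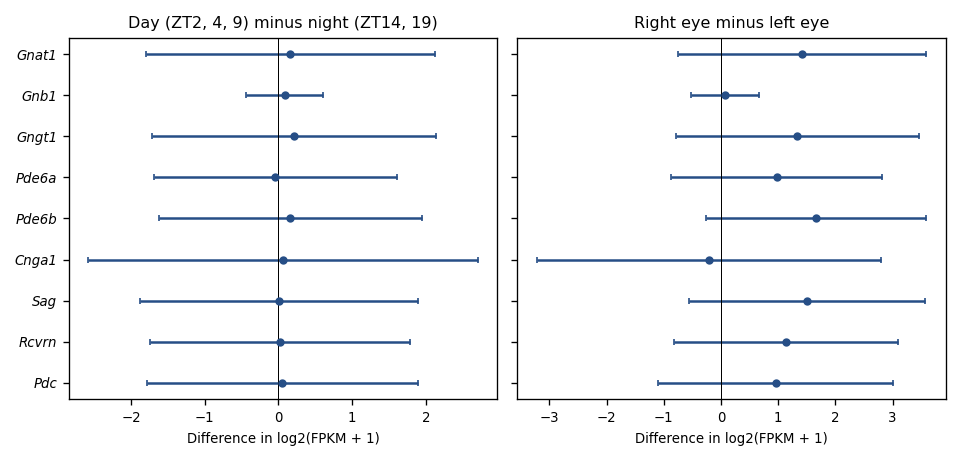
Fitted difference in log2(FPKM + 1) for each gene, day minus night on the left and right minus left eye on the right, with 95% intervals from limma. Every interval includes 0; the interval of Gnb1 is the narrowest in both panels, and that of Cnga1 the widest.

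Samples that were high for one gene were high for the others. Gnat1 was compared with the 8 other genes and with 10 markers of rods and other cells, and p values were adjusted over these 18 pairs. On the log2(FPKM + 1) scale Pearson's r with Gnat1 over 30 samples was 0.97 for Sag, 0.97 for Pde6a, 0.96 for Pde6b, 0.95 for Pdc, 0.94 for Gngt1 and 0.93 for Rcvrn. It was 0.87 for Gnb1 and 0.73 for Cnga1. Spearman's rank correlation was 0.98 for Sag, 0.95 for Pde6a, 0.91 for Pde6b, 0.92 for Pdc, 0.95 for Gngt1, 0.91 for Rcvrn, 0.75 for Gnb1 and 0.76 for Cnga1. The permutation p was 1e-05, the smallest that the resampling can give, for all but the Pearson r of Cnga1, whose p was 3e-05 (adjusted permutation p = 4.5e-05, against 2e-05 for the others). These relations held within time points (r from 0.73 to 0.98 after centring) and without the 2 samples farthest from the Gnat1 median, ZT9 replicate 2 and ZT0 replicate 5 (0.68 to 0.97). Animal numbers were grouped here into 3 runs, divided at the widest gaps between numbers, and the labels name no such runs. In the 21 mice numbered 818 to 845, r lay between 0.77 and 0.97, while the 5 mice numbered 861 to 871 and the 4 numbered 882 to 889 were too few for a value. Without ZT14 replicate 3, r lay between 0.74 and 0.98. Gnat1 levels formed no separate clusters, with a largest gap between neighbouring samples of 1.09 in a log2 range of 7.93. Correlations across samples were weak for most genes: the median r with Gnat1 was -0.01 over the 16740 other genes tested, and 53 exceeded 0.9.

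**Figure D4:**
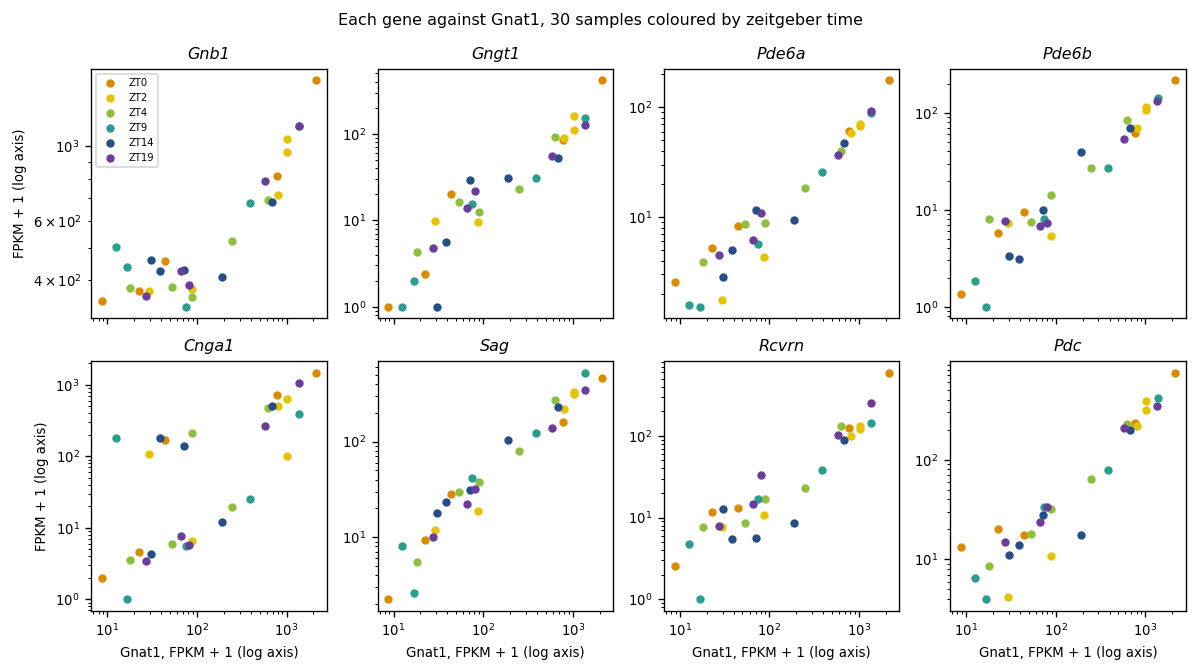
FPKM plus 1 of each of the other 8 genes against that of Gnat1 (both log axes), 1 point per sample, coloured by zeitgeber time. Most panels show a single diagonal band; the Gnb1 points level off at low Gnat1, with a lowest value of 332 FPKM, and 6 low-Gnat1 samples in the Cnga1 panel stand at 107 to 209 FPKM, above the rest.

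Of 7 proportions examined, 5 had an SD between 0.53 and 0.87 on the log2 scale. Ratios were taken within each sample, as FPKM + 1 of one gene over FPKM + 1 of the other. The median ratio of Pde6a to Pde6b was 0.81 over the 30 samples, with an SD of 0.67 on the log2 scale. Sag stood at 0.356 times the level of Gnat1 (SD 0.53, log2) and Pdc at 0.357 times (SD 0.76). The ratios were 0.181 for Rcvrn to Gnat1 (SD 0.87) and 0.129 for Gngt1 to Gnat1 (SD 0.81), so that the gamma subunit was listed below the alpha subunit in all samples. The SDs of these 5 ratios were taken over all 30 samples. Levels of the same genes had SDs of 2.12 to 2.54 within time points, a measure that leaves out differences between times. Gnb1 to Gnat1 was not steady, with a median ratio of 4.36 and an SD of 1.85. Cnga1 to Pde6b varied more still, with a median ratio of 2.00, an SD of 2.19 on the log2 scale and log2 values from -1.72 to 6.63. The SDs within time points were 3.41 for Cnga1 and 2.30 for Pde6b. Gnb1 followed Gnat1 on the linear scale. A straight line, a description added after the values were seen, had an intercept of 373 ± 13.4 FPKM (SE) and a slope of 0.57 ± 0.02 FPKM of Gnb1 per FPKM of Gnat1, with r = 0.98 across the 30 samples. Without ZT0 replicate 5 the intercept was 372 ± 14.2 FPKM. The corresponding intercept was 1.11 ± 1.79 FPKM for Pde6b, and 1.32 ± 1.88 FPKM without that sample. For Pde6a it was -0.41 ± 1.33 FPKM with all samples and 1.29 ± 0.69 FPKM without ZT0 replicate 5.

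Cnga1 departed from the common pattern. Its median was 103 FPKM and its highest level 1474 FPKM, in ZT0 replicate 5. Of the 17 samples with Gnat1 under 100 FPKM, 11 had Cnga1 levels between 0 and 6.78 FPKM, and the other 6 had levels between 107 and 209 FPKM. Those 6 were ZT9 replicate 3 (181 FPKM), ZT14 replicate 4 (178 FPKM), ZT0 replicate 3 (168 FPKM), ZT14 replicate 5 (139 FPKM), ZT4 replicate 5 (209 FPKM) and ZT2 replicate 5 (107 FPKM). They come from 5 of the 6 times. The split was placed at the widest gap among these 17 Cnga1 values, so the lack of values in between follows from that choice. The 6 samples were unevenly spread over the runs of animal numbers. They included 2 of the 2 low-Gnat1 samples numbered 861 to 871 and 2 of the 3 numbered 882 to 889, against 2 of the 12 numbered 818 to 845. Over all 30 samples the median of Cnga1 was 10.9 FPKM in mice 818 to 845, 261 FPKM in mice 861 to 871 and 81.6 FPKM in mice 882 to 889. The part of the animal number runs in the Cnga1 values was not tested. In the 13 samples with more Gnat1, Cnga1 ran from 10.9 to 1474 FPKM. Values of 10.9, 18.7, 24.6 and 99.4 FPKM among them lay between 6.78 and 107 FPKM. Cngb1, the partner subunit of the same channel, did not split in this way: it ran from 0.629 to 18.3 FPKM in the 17 samples, and it was 0.629 FPKM in ZT14 replicate 4. In the opposite direction, ZT2 replicate 1 had 1018 FPKM of Gnat1 and 132 FPKM of Cngb1 but 99.4 FPKM of Cnga1, below all 6 of those samples. Cnga1 has 6 annotated transcripts with 157 to 2739 exon bases. The pseudogene Gm5297 (chromosome 5, 72626858 to 72628028, minus strand) lies within Cnga1 and was at 0.0508 to 1.57 FPKM. The part of these features in the Cnga1 values was not tested. The split of the Cnga1 values, Cngb1 and Gm5297 were singled out after the values were seen.

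Other genes of rods moved with the same samples. The 26 other rod genes all passed the filter on low values, and none was called in the rhythm, time, day-night, step or eye comparisons, with 0 also below an unadjusted p of 0.05 in limma. Among their highest medians were those of Unc119, a carrier of the transducin alpha subunit, at 143 FPKM, and of Rom1, an outer segment disc protein, at 93.9 FPKM. The lowest medians were those of the guanylate cyclase gene Gucy2f (2.37 FPKM), of Rgs9bp, the anchor of the complex that shuts transducin off (2.30 FPKM), and of Cabp4, a calcium-binding protein of the synapse (0 FPKM). Pearson's r with Gnat1 had a median of 0.90 over the 26 genes and ran from 0.55 (Slc24a1) to 0.98 (Rbp3), and 13 exceeded 0.9.

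The genes most like each member, by Pearson's r over the 30 samples among 16732 tested genes outside the set, are given first, 3 per member. For Gnat1 they were Rbp3 (0.98), Prph2 (0.97) and Nrl (0.97). Prph2 and Nrl were among the 3 for Sag (0.97 and 0.96), and Pde6b had Pde6g, its inhibitory subunit, Slc17a7 and Prph2 (0.97, 0.97 and 0.96). For Pde6a they were Grk1, Prph2 and Chgb (0.97 each). Grk1 also led for Rcvrn (0.97, followed by Pde6g and Prph2) and for Pdc (0.97, followed by Aipl1 and Rgs9bp). Gngt1 had Crx (0.94), Prph2 (0.94) and Cplx3 (0.93). Gnb1 had Impg2 (0.94), Cpne6 (0.93) and Rom1 (0.92). Cnga1 again stood apart, since its closest genes were E130218I03Rik (0.84), Cnnm1 (0.82) and Dpp6 (0.81), none of which was in the list of other rod genes. Of the 20 genes most like each member, 11 were in that list for Gnat1 and for Rcvrn, 10 for Pde6a and for Sag, 9 for Gngt1 and for Pdc, 8 for Pde6b, 5 for Gnb1 and 3 for Cnga1.

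The 4 cone and inner retina markers tested rose with Gnat1, and those of the RPE and of tissues outside the retina did not. For the cone genes Arr3 and Gnat2, r was 0.70 and 0.61 (Spearman 0.63 and 0.65; adjusted permutation p = 4.5e-05 and 3.2e-04, n = 30). For Grm6, a receptor of ON bipolar cells, and Slc17a6, a transporter of ganglion cells, r was 0.91 and 0.81 (Spearman 0.80 and 0.82; adjusted permutation p = 2e-05 for each), although Grm6 was listed at 0 in 12 samples and Slc17a6 in 14. The median r was 0.68 over 12 cone genes, 9 of which exceeded 0.5, and 0.80 over 18 inner retina genes, 13 of which did. The inner retina list also held genes with a negative r, Slc6a9 (-0.38) and Rbpms (-0.36). The 8 genes listed for Müller glia, the supporting cells of the retina, did not share the pattern, with a median r of 0.17. The highest was 0.27 (Slc1a3) and the lowest -0.33 (Rlbp1, which the RPE list holds as well). Median levels were 7251 FPKM for Apoe, 1538 for Clu, 796 for Rlbp1, 611 for Glul and 305 for Dkk3. They were 33.3 FPKM for Slc1a3, 14.6 for Aqp4 and 7.79 for Kcnj10. How much of this RNA came from Müller glia was not tested. Summed levels ran from 27.2 to 478 FPKM for the cone genes and from 126 to 479 FPKM for the inner retina genes. The highest medians of the inner retina list were those of Slc6a9 (78.8 FPKM) and Rbpms (28.9 FPKM), the genes with a negative r. Grm6 and Slc17a6 had medians of 0.368 and 0.344 FPKM. Rpe65 had an r of -0.33 (Spearman -0.26; adjusted permutation p = 0.0929), and the 16 RPE genes had a median r of -0.33 with none above 0.5. Krt12 of the corneal epithelium (0.12), Mylpf of fast muscle (-0.27) and Mobp of myelin (0.03) did not pass (adjusted permutation p = 0.553, 0.165 and 0.858). Col1a1, a collagen of the stroma, had an r of -0.41 (adjusted permutation p = 0.0294; Spearman -0.36, adjusted permutation p = 0.0637), which was -0.33 within mice 818 to 845 (adjusted permutation p = 0.178) and -0.33 without ZT0 replicate 5 (adjusted permutation p = 0.111). In ZT0 replicate 5, the sample with the most Gnat1, Rpe65 was at 492 FPKM; in ZT0 replicate 1, with the least, it was at 521 FPKM. The part of other retinal cells in the levels of the rod genes was not tested.

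**Figure D5:**
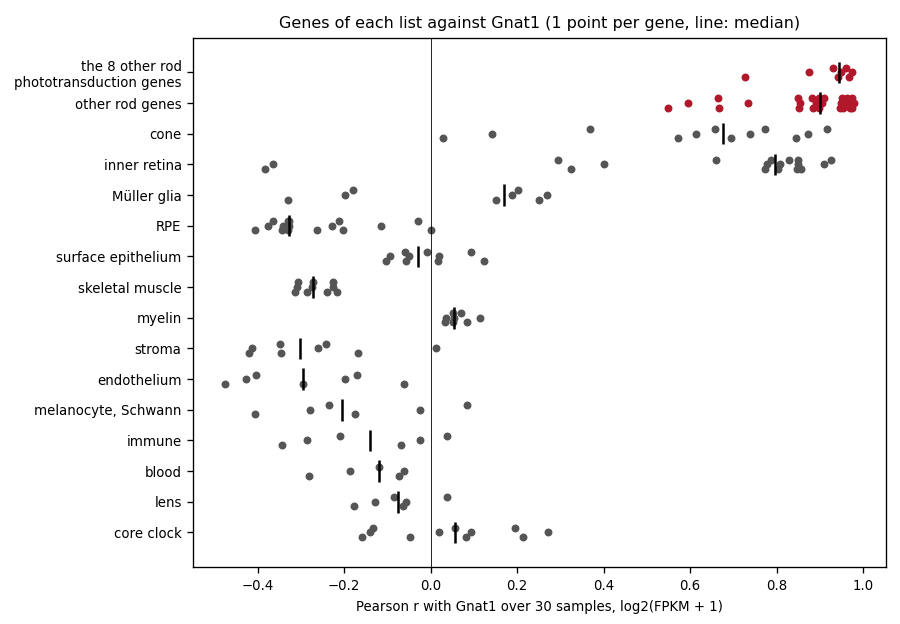
Pearson's r of log2(FPKM + 1) with Gnat1 over 30 samples for the genes of each list, 1 point per gene with a line at the list's median; rod lists are red. Rod, cone and inner retina lists have medians of 0.94, 0.90, 0.68 and 0.80, and the RPE list has a median of -0.33.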

How the data were processed

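RNA of RPE samples from 30 mice was sequenced as single reads on a NextSeq 500, per the labels' protocols. STAR, Cufflinks, DESeq2 and the build mm10 appear, with no versions, in the submitters' processing notes. The authors deposited 1 table of FPKM values, written with decimal commas, for 51904 genes; the unit is taken from the name of the table. Strand use, the annotation and the treatment of shared reads are not given in the sources used here. Replicate numbers here follow accession order and pair no samples.

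Genes with at least 1 FPKM in at least 5 samples were kept (16741, among them all 9 members), and log2(FPKM + 1) was tested with limma 3.58.1 (R 4.3.3, variance trend), two-sided, with Benjamini-Hochberg adjustment over all tested genes and a threshold of 0.05. On this scale changes of low genes are understated. Correlations used 100000 permutations. The fits were first tested on simulated data. Depth was estimated from the steps between low FPKM values of genes with 1 transcript (exon length less 199 bases); 97.5% to 99.7% of low values fell on whole steps within 0.03. A gene listed at 0 can be a failed estimate. Positions come from GENCODE M21. Alternatives covered the pseudocount, filters, scaling, variance trend, animal number runs, marker scores, eye and leaving out each sample.

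The members and gene lists were chosen with earlier results of these data known. Named are all 9 members, the other rod genes with the 3 highest and 3 lowest medians, the 3 genes most like each member, markers of other cells and the extremes of lists; 1 gene that this rule names is not reported here.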

Additional observations from a re-analysis of the deposited data

Results flagged for a closer look

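Gnb1 in ZT14 replicate 1 was at 681 FPKM, far from the other 4 mice of that time, which lay between 407 and 458 FPKM. The gap to the nearest mouse was 0.772 of the range of the group on the log2(FPKM + 1) scale, above Dixon's 95% critical value of 0.71. Gnat1 was also highest of the 5 in that sample, at 680 FPKM. This was the only such case among the 54 groups of 5 mice examined (9 genes at 6 times), and chance alone gives about 1 in 20.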

How the results depend on the processing

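The finding that none of the 9 genes was called in the rhythm, time, day-night, step and eye comparisons held under all alternatives run, including leaving out each of the 30 samples, and so did the 8 correlations of Gnat1 with the other members. The smallest limma adjusted p over these alternatives was 0.587 for the rhythm, 0.808 for any time difference, 0.807 for day against night, 0.548 for the steps and 0.281 for the eye, where 10 of 369 values had an unadjusted p below 0.05. The sign of day minus night was not stable, and the cause was not tested. With a pseudocount of 0.1 it was -0.17 for Rcvrn, -0.0303 for Pde6b, -0.0413 for Sag and -0.11 for Cnga1. With animal number runs as a term it was -0.0932 for Pdc, -0.26 for Rcvrn, -0.0302 for Pde6b, -0.0668 for Gnat1, -0.21 for Sag and -0.0307 for Cnga1. With the RPE marker score it was -0.60 for Pdc, -0.61 for Rcvrn, -0.11 for Gnb1, -0.38 for Pde6b, -0.31 for Gngt1, -0.47 for Gnat1, -0.58 for Sag and -0.76 for Cnga1. With 4 other tissue scores it was -0.50 for Pdc, -0.42 for Rcvrn, -0.16 for Gnb1, -0.18 for Sag and -0.79 for Cnga1. Leaving out 1 sample moved it between -0.41 and 0.69 for Cnga1, -0.16 and 0.55 for Gnat1, -0.00012 and 0.22 for Gnb1, -0.24 and 0.50 for Gngt1, -0.26 and 0.41 for Pdc, -0.33 and 0.27 for Pde6a, -0.17 and 0.51 for Pde6b, -0.27 and 0.38 for Rcvrn, and -0.32 and 0.35 for Sag. Right minus left eye for Cnga1 was 0.20 with a pseudocount of 0.1, 0.77 with the RPE score, 0.39 with 4 other tissue scores and -1.04 to 0.44 without single samples; for Gnb1 the last range was -0.0437 to 0.22. The r of Gnat1 with Mobp was -0.0116 after centring within time points and -0.0024 to 0.094 without single samples. After the same centring, Rpe65 and Mylpf each passed at r = -0.39 (adjusted permutation p = 0.0378), and Rpe65 passed without ZT0 replicate 1 (r = -0.45, adjusted permutation p = 0.0168). Col1a1 did not pass without any one of ZT0 replicate 5, ZT2 replicate 2, ZT4 replicate 4, ZT14 replicate 1 and ZT19 replicate 1 (r from -0.39 to -0.33). No paired analysis was possible because the labels give no replicate numbers and each mouse contributed 1 sample. Depth limits the lowest genes, where 1 read makes a visible step.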
